A study of Mus musculus with 4 samples.

Results

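The 10 genes described here are the immediate early genes Fos, Fosb, Jun, Junb, Jund, Egr1, Ier2, Atf3, Nr4a1 and Dusp1, taken by symbol from the 27998 genes of a single-cell RNA sequencing series of mouse hindlimb. Immediate early genes are switched on within minutes of a growth factor, cytokine, stretch or stress signal, without new protein being made, and their RNA is short-lived. Fos, Fosb, Jun, Junb and Jund encode the proteins that pair to form the transcription factor AP-1, and Atf3 encodes a stress-induced factor that can pair with Jun proteins. Egr1 encodes a zinc finger factor, Nr4a1 an orphan nuclear receptor, Ier2 a small nuclear protein, and Dusp1 a phosphatase that switches off MAP kinases. Dusp1 is thus not a transcription factor. Enzymatic digestion of tissue at 37 °C is itself known to raise the RNA of these genes.

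The series held 4 libraries, taken at day 7 after injury, and each library was tissue pooled from 2 mice, so each group had 1 library. Ddr2 slie/slie mice carry, on both alleles, the slie mutation, which arose spontaneously and deletes part of Ddr2, a receptor for fibrillar collagen. The other mice were littermate controls, with no further genotype given. All mice received isoflurane, buprenorphine, a dorsal burn over 30% of the body surface and a cut of the left Achilles tendon. The injured libraries came from the left tendon site with the tissue around it, and the uninjured libraries came from the right limb of the same burned mice, so no limb came from a mouse without a burn. The tissue was digested for 20 min in type 1 collagenase and dispase II at 37 °C and strained at 40 µm, and suspensions above 85% viability were sequenced.

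With barcodes under 200 genes or over 20% mitochondrial UMIs left out, 751 barcodes of the injured control library, 246 of the injured slie/slie library, 60 of the uninjured control library and 184 of the uninjured slie/slie library were kept as cells. Median depth lay between 1218 and 4841 UMIs per cell. The uninjured control library stood apart, since 991 of its 1075 deposited barcodes had under 200 genes. 1 barcode sequence was shared between libraries, and it was not a kept cell in both. Ddr2 gave 115 UMIs in the injured control cells and 0 in the injured slie/slie cells, 3 in the uninjured control cells and 2, both in 1 cell, in the uninjured slie/slie cells. Levels are CPM, the UMIs of a gene per 1000000 UMIs of the cells summed. With 1 library a group there is no test between groups: intervals are 95%, cover counting error only, and a ratio describes these libraries. A gene was called higher or lower at a 1.5-fold ratio of CPM with at least 20 UMIs over both sides. In summed cells, fewer cells of a type and less RNA per cell cannot be told apart.

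The members are compact genes. In the mouse annotation 9 of the 10 had at most 4 exons, against 33.0% of the 21554 protein-coding genes in the matrices, and Ier2, Jun, Junb and Jund had 1. The median transcript span was 3286.5 bp, against 16111 bp. RefSeq promoter windows of GRCm38.p6, from 250 bases before to 50 after the start, were matched for 8 of the 10 members. Egr1 and Ier2 had no window. The cAMP response half-site TGACG, or CGTCA on the other strand, is a site read by CREB and ATF proteins, and it occurred in 6 of those 8 windows (Atf3, Dusp1, Fos, Fosb, Junb and Nr4a1), against 23.0% of the genes in the table. The full palindrome TGACGTCA, which holds a half-site on each strand, occurred in the Dusp1 window alone among the 8, and in 2.03% of genes. The TATA box TATAAA, searched on the gene's strand, occurred in the Fos and Junb windows and in 9.77% of genes. The Fos match lay at positions -33 to -28 from the start. The Junb match lay at 1 to 6, so at the annotated start itself and after the bases printed below. The EGR site GCGNGGGCG occurred in the Fosb and Nr4a1 windows and in 6.27% of genes. Neither the AP-1 site TGAGTCA (5.95% of genes) nor the CArG box of serum response factor (1.81%) matched any of the 8 windows, with both strands searched. Bases further than 250 before the start were not searched, so these genes can still hold such sites outside the windows. A match describes the letters and is not shown binding. The 250 bases before the start are printed 5′ to 3′ on the gene's strand for the 4 members with the largest neutrophil ratios among the measured ones in the injured control library (Atf3, Dusp1, Fos and Junb), and for Nr4a1, which had the smallest ratio. Capitals mark each half-site in either orientation.
Fos (chr12:85473640-85473889, plus strand): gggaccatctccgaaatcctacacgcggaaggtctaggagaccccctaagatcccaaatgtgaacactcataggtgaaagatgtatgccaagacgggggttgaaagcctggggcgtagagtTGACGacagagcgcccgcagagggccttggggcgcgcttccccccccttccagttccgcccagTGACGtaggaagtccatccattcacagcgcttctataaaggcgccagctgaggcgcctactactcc
Junb (chr8:84978749-84978998, minus strand): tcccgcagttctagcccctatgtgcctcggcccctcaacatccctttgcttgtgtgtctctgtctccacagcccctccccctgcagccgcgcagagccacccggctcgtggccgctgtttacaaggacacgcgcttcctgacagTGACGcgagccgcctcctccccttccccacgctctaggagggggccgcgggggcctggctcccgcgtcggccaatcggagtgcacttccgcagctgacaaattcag
Atf3 (chr1:191183334-191183583, minus strand): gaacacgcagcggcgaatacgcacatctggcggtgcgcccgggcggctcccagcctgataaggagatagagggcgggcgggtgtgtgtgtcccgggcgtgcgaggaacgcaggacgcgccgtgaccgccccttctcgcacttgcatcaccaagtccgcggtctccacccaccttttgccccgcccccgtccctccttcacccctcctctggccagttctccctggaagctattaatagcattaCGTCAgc
Dusp1 (chr17:26508473-26508722, minus strand): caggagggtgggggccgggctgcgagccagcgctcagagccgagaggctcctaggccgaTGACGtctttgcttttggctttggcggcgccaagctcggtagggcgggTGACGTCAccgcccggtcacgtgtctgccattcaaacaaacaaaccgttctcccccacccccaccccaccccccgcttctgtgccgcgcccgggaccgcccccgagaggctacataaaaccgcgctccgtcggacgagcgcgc
Nr4a1 (chr15:101266596-101266845, plus strand): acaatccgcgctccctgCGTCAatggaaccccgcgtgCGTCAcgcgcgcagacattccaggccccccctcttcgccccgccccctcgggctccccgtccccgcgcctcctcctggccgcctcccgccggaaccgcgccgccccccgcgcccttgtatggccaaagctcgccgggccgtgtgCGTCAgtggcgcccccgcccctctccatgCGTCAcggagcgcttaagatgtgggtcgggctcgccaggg
Both half-sites of Fos lay before the start, at positions -129 and -66, and the 4 of Nr4a1 lay between -233 and -36, counted from the start. The number of half-sites did not order the members by level: Nr4a1 had 4 and Atf3 had 1.

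All 10 members were found in every library, with Fosb the sparsest. Summed over the members, the level was 1937 CPM (1894 to 1980) in the injured control library and 1884 CPM (1800 to 1970) in the injured slie/slie library. In the uninjured libraries it was 1569 CPM (1415 to 1734) in the control and 1595 CPM (1521 to 1672) in the slie/slie library. The intervals of the 2 genotypes overlapped in each limb. In the order injured control, injured slie/slie, uninjured control and uninjured slie/slie, Fos stood at 301, 148, 61.8 and 100.3 CPM and Junb, its partner in AP-1, at 503, 552, 119 and 179 CPM. Both were higher in each injured library than in the uninjured library of the same genotype. Without neutrophil-like cells that direction turned in slie/slie mice, at injured over uninjured log2 ratios of -1.58 for Fos and -0.082 for Junb. Jund, the family member known for steady expression, ran the other way, at 388, 430.3, 585 and 589.8 CPM. Jun stood at 217, 204, 235 and 246 CPM and Ier2 at 175, 114, 119 and 171 CPM. Egr1 stood at 63.2, 67.3, 107 and 91.2 CPM, with both uninjured libraries above both injured ones. Atf3 was highest in the uninjured control library (values 63.5, 62.3, 107 and 41.0 CPM), and Dusp1 in the injured slie/slie library (187, 284, 206 and 145 CPM). In the uninjured control library 3 cells held 76.9% of the 26 Atf3 UMIs and 80.8% of the 26 Egr1 UMIs. The top 3 cells of each gene held 66.7% of the 15 Fos, 80.0% of the 5 Nr4a1, 60.0% of the 50 Dusp1 and 51.7% of the 29 Ier2 UMIs. For Jun, Junb and Jund that share lay between 41.4% and 43.9%. Member levels of that library thus rest on few of its 60 cells. Nr4a1 stood at 34.5, 14.8, 20.6 and 30.1 CPM. Fosb had 22, 7, 2 and 3 UMIs in all, too few to order the libraries.

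Member levels were far higher in neutrophil-like cells than in the rest. Cells were clustered without the members and without the lists of other early, feedback and heat shock genes, so the member levels did not enter the clustering directly. Other genes that vary with the members, such as Cxcl2, were not left out and could shape the clusters. Clusters 3 and 7 carried the neutrophil markers S100a8, S100a9, Csf3r, Cxcr2 and Retnlg, and together are called neutrophil-like. Neutrophils are short-lived white cells that enter wounds early. They made up 152 cells (20.2%) of the injured control library and 44 (17.9%) of the injured slie/slie library, against 0 of 60 and 3 of 184 in the uninjured libraries. The 0 of 60 allows a share of up to 5%.

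Summed over the members, neutrophil-like cells had 11950 CPM (11510 to 12410) against 1340 CPM (1303 to 1377) in all other cells of the injured control library. In the injured slie/slie library the levels were 13980 CPM (13160 to 14830) and 876 CPM (817 to 938). The sum was thus 8.92-fold (8.51 to 9.35) and 16.0-fold (14.6 to 17.5) higher in neutrophil-like cells. Of the 10 members measured in the control library, 10 were higher, where 20.6% of all 10748 genes measured were higher and 55.5% lower. Of the 8 measured in the slie/slie library, 8 were higher, where 20.7% of all 6331 genes measured were higher and 60.3% lower. Thinned to 500 UMIs per cell, neutrophil-like cells held a mean of 7.12 and 7.47 member UMIs per cell, against 0.663 and 0.50 in the other cells. At that depth 98.7% and 93.0% of neutrophil-like cells held a member UMI, against 42.7% and 32.7% of the others; unthinned, the shares were 100% in both libraries and 75.3% and 55.0%. In erythroid-like cells of the control library the thinned share was 8.33% of 24 cells.

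Among the AP-1 genes, Junb stood at 3551 CPM (3310 to 3804) in neutrophil-like cells against 321 CPM in the others in the injured control library, and at 5181 CPM (4688 to 5713) against 166 CPM in the slie/slie library. Fos stood at 2511 CPM (2309 to 2726) against 169 CPM, and at 1556 CPM (1291 to 1859) against 31.1 CPM. In both libraries the intervals of the 2 cell groups were far apart for these genes. Fos was 14.8-fold (13.2 to 16.6) and 48.8-fold (32.5 to 75.4) higher, and Junb 11.1-fold (10.1 to 12.1) and 31.1-fold (25.8 to 37.6) higher. Jun, the AP-1 partner common to Fos proteins, stood at 674 against 189.7 CPM and at 810 against 153 CPM, ratios of 3.57 (2.98 to 4.26) and 5.33 (3.91 to 7.21). Jund had ratios of 4.38 (3.87 to 4.96) and 2.81 (2.19 to 3.58), the latter the smallest among the 8 members measured there. Fosb had 7 and 7 UMIs in neutrophil-like cells, against 15 and 0 in the others.

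The stress factor Atf3 and the MAP kinase phosphatase Dusp1 had the largest ratios in the control library. Atf3 was 36.0-fold (27.5 to 47.4) higher, at 771 against 21.3 CPM, and Dusp1 23.6-fold (20.4 to 27.4) higher, at 1938 against 82.0 CPM. Dusp1 in the slie/slie library was 84.3-fold (59.3 to 123) higher, at 3240 against 37.5 CPM, and Atf3 48.0-fold (25.8 to 96.1) higher, at 656 against 12.9 CPM. Few UMIs of either gene lay outside neutrophil-like cells there (35 and 12). Egr1 was 5.56-fold (4.12 to 7.41) and 32.2-fold (18.7 to 57.8) higher, and Ier2 4.91-fold (4.09 to 5.87) and 10.3-fold (7.01 to 15) higher. Nr4a1, whose promoter holds the most half-sites of the printed ones, was 2.30-fold (1.30 to 3.83) higher on 16 against 123 UMIs in the control library, and had 5 against 10 UMIs in the other.

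**Figure D1:**
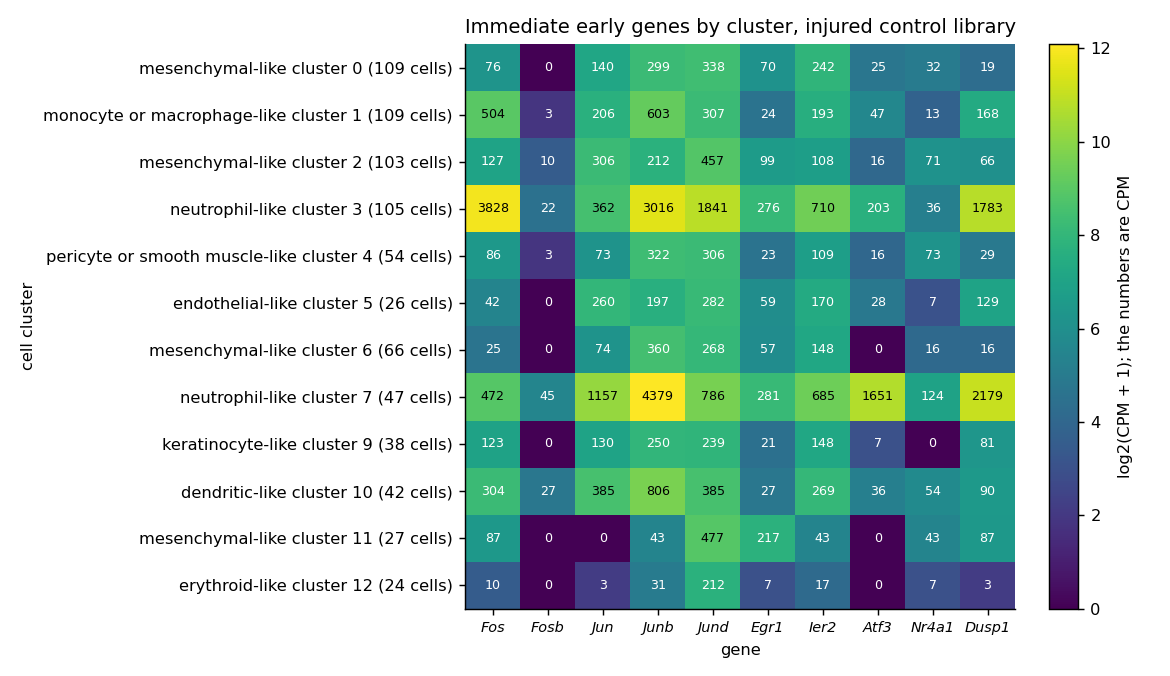
CPM of each of the 10 genes (columns) in the clusters of at least 20 cells (rows) of the injured control library; colour is log2(CPM + 1) and the printed numbers are CPM. Neutrophil-like clusters 3 and 7 stand out for Fos (3828 and 472 CPM), Junb (3016 and 4379 CPM) and Dusp1 (1783 and 2179 CPM).

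Neutrophil-like cells thus held a large part of the RNA counted for some members and less of others. In the injured control library they held 68.4% of the Atf3 UMIs, 58.5% of Dusp1, 47.0% of Fos and 39.7% of Junb, from 20.2% of the cells. In the injured slie/slie library the shares were 81.0%, 87.8%, 80.7% and 72.2%, from 17.9% of the cells. Jund shares were near the share of cells in both, at 20.7% and 18.9%. Neutrophil-like cells held a smaller share of all UMIs, 227001 of 4032783 in the control and 77778 of 1010828 in the slie/slie library. Per UMI, Jund was thus higher in these cells than in the others, at ratios of 4.38 and 2.81. Nr4a1 lay mostly elsewhere, with 11.5% and 33.3% of its UMIs in neutrophil-like cells. Per UMI it was still 2.30-fold higher in them in the control library.

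**Figure D2:**
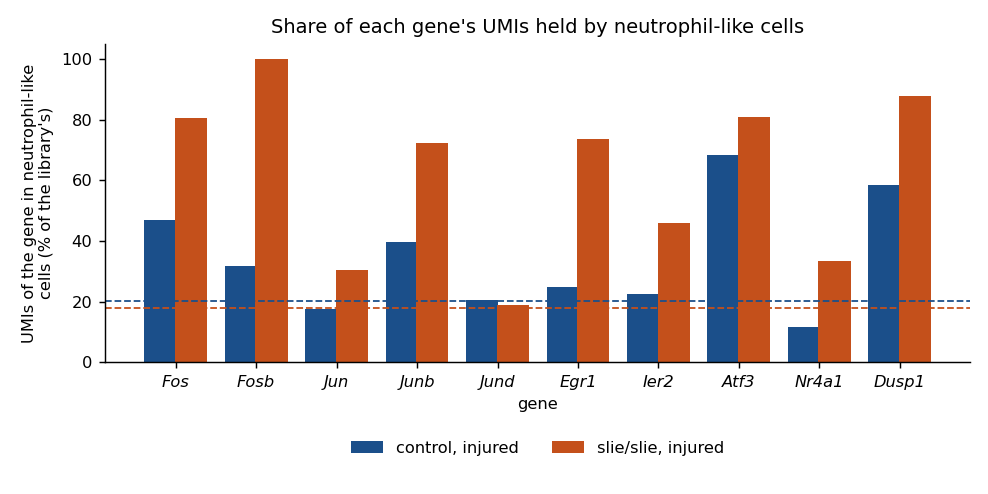
Share of the library's UMIs of each gene that lay in neutrophil-like cells (percent) in the 2 injured libraries; dashed lines mark the share of cells that were neutrophil-like, 20.2% in the control and 17.9% in the slie/slie library. Dusp1 (58.5% and 87.8%) and Atf3 (68.4% and 81.0%) lie far above the share of cells, and Jund (20.7% and 18.9%) close to it. Of all UMIs, neutrophil-like cells held 227001 of 4032783 and 77778 of 1010828, a smaller share than that of cells.

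The 2 neutrophil-like clusters differed in the levels of single members, of which Fos and Atf3 did so in both injured libraries. Cluster 7, whose leading genes include the chemokine genes Ccl4, Ccl3 and Cxcl2, had 47 control and 27 slie/slie cells, and cluster 3 had 105 and 17. Their sums were alike in the control library, at 11760 CPM in cluster 7 and 12080 CPM in cluster 3, a ratio of 0.974 (0.901 to 1.05). Fos stood at 472 CPM in cluster 7 against 3828 CPM in cluster 3, a ratio of 0.126 (0.0901 to 0.172), and Jund at 786 against 1841 CPM, a ratio of 0.431 (0.327 to 0.563). Atf3 ran the other way, at 1651 against 203 CPM, 7.91-fold (5.28 to 12.2), and so did Jun, at 1157 against 363 CPM, 3.16-fold (2.24 to 4.51). Of 8 members measured, 2 were higher and 2 lower in cluster 7, where 20.6% of all genes measured were higher and 45.2% lower. Fos was lower in cluster 7 of the slie/slie library too, at 1268 against 2088 CPM (ratio 0.606, 0.419 to 0.879). Atf3 had 51 UMIs in cluster 7 and 0 in cluster 3, at least 9.19-fold higher with 3 UMIs in place of the 0. Of 8 members measured there, 4 were higher and 1 lower, where 33.1% and 28.6% of all genes measured were. With 8 members, the counts of neither library set them apart from genes in general. Jun and Jund lay within 1.5-fold in that library.

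Outside neutrophil-like cells, every other cluster of at least 20 cells in the injured control library held member UMIs. Dendritic-like cluster 10 (2381 CPM summed) and monocyte or macrophage-like cluster 1 (2068 CPM) had the highest sums among them. Mesenchymal-like clusters 2, 0, 11 and 6 stood at 1471, 1242, 997 and 964 CPM. Endothelial-like cluster 5 had 1175 CPM, pericyte or smooth muscle-like cluster 4 had 1038 CPM and keratinocyte-like cluster 9 had 999.6 CPM. Cluster 1 was the richest of these in Fos, at 504 CPM, and cluster 10 in Junb, at 806 CPM. Erythroid-like cluster 12 had 292 CPM (233 to 362), of which Jund gave 212 CPM. The top 10 genes of this cluster were led by hemoglobin genes and included the T cell gene Cd3d. Of its 24 control cells, 8 had at least 0.5% mitochondrial UMIs and held 52 of its 84 member UMIs. Hemoglobin took 84.8% of the cluster's UMIs, and without hemoglobin in the total its sum was 1926 CPM. In all cells of that library with at least 0.5% mitochondrial UMIs hemoglobin took 0.0305%, so the 8 cells held almost none of the cluster's hemoglobin. The name erythroid-like thus rests on the other cells of the cluster, and leaving out erythroid-like cells leaves out those 8 too.

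In the uninjured limbs the slie/slie library alone had clusters of at least 20 cells. Endothelial-like cluster 5 had 2097 CPM summed there, mesenchymal-like cluster 8 had 1356 CPM and pericyte or smooth muscle-like cluster 4 had 837 CPM. Jun (382 CPM), Dusp1 (371 CPM) and Ier2 (339.8 CPM) were each highest in the endothelial-like cells of these 3 clusters, and Jund in mesenchymal-like cluster 8, at 706 CPM. Cluster 8 held 67 cells of this library and at most 2 of any other, so it cannot be told apart from the library.

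Other gene lists were counted beside the members, against the shares over all genes measured (in the control library 20.6% higher and 55.5% lower, and in the slie/slie library 20.7% and 60.3%). In neutrophil-like cells of the injured control library 8 of 13 measured feedback genes, which dampen early signals, were higher and 3 lower, with a median log2 ratio of 2.11. In the slie/slie library 8 of 10 were higher and 1 lower, with a median of 3.48. Over all genes measured the medians were -0.79 and -1.0. Zfp36, which destabilises early response RNA, was 14.0-fold (11.6 to 16.9) and 23.4-fold (16.0 to 34.7) higher. Btg2, an antiproliferative gene, was 13.6-fold (11.6 to 16.0) and 30.1-fold (22.1 to 41.4) higher, and Nfkbia, the inhibitor of NF-κB, 7.77-fold (7.07 to 8.54) and 13.2-fold (10.7 to 16.2). Of the other early genes, 13 of 21 were higher and 6 lower in the control library, and 10 of 16 higher and 5 lower in the other. Btg1 was 11.5-fold (10.5 to 12.6) and Ier3 8.51-fold (7.63 to 9.48) higher in the control library, while Ctgf, an early gene of fibroblasts, was lower (ratio 0.0702, 0.0257 to 0.153).

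The upstream list, which holds kinases and factors that relay the signal, had 8 of 20 genes higher and 9 lower in neutrophil-like cells of the control library. The kinase gene Map2k2 had a ratio of 0.385 (0.184 to 0.716). Among AP-1 partners 5 of 11 were higher and 4 lower. Jdp2, a repressor that pairs with Jun, had a ratio of 4.13 (3.31 to 5.13). Of 15 genes known as targets of AP-1, EGR1 or stress kinases, 3 were higher and 10 lower, near the shares over all genes measured (20.6% and 55.5%). Cxcl2, a chemokine that draws neutrophils, had a ratio of 86.5 (81.7 to 91.7), and Timp1 and Ccl2 had ratios of 0.0383 (0.0140 to 0.0834) and 0.0209 (0.000528 to 0.117).

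The heat shock list, 15 chaperone and stress genes known to respond to tissue digestion, was lower as a sum in neutrophil-like cells, mainly in cluster 3. Its level was 2581 CPM (2377 to 2799) in neutrophil-like cells and 4538 CPM (4471 to 4606) in the other cells of the injured control library. The slie/slie values were 2700 CPM (2347 to 3091) and 4921 CPM (4780 to 5066). By cluster, the sum was 1740 CPM in cluster 3 and 3885 CPM in cluster 7 of the control library. In the slie/slie library it was 1355 and 3427 CPM. Monocyte or macrophage-like cluster 1 had 3703 CPM in the control and 2734 CPM in the slie/slie library, so cluster 7 was not lower than every other cluster. Of 15 genes measured in the control library 3 were higher and 9 lower. The median log2 ratio was -1.62, or -0.65 with the 2 genes that had no UMI on one side put at their bound. In the slie/slie library 3 of 13 were higher and 7 lower. In both libraries these counts lie near the shares over all genes measured (20.6% higher and 55.5% lower, and 20.7% and 60.3%), so they show nothing particular to the list. Hsp90ab1 had ratios of 0.112 (0.0752 to 0.159) and 0.0967 (0.0482 to 0.174), and Hspa8 of 0.326 (0.255 to 0.411) and 0.179 (0.0948 to 0.307), while Hspa5 lay within 1.5-fold (1.19 and 1.30). The labels give the same digestion for the 4 libraries, and the part of dissociation in the member levels was not tested.

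**Figure D3:**
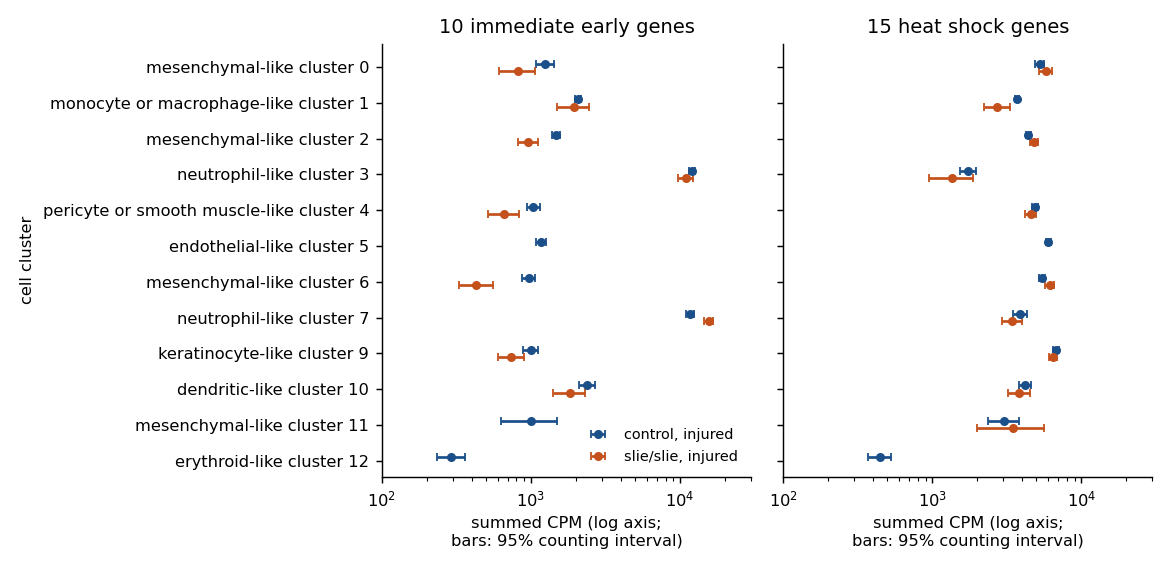
Summed CPM of the 10 immediate early genes (left) and of the 15 heat shock genes (right), on log axes, by cluster in the 2 injured libraries; points are sums over at least 10 cells, bars are 95% counting intervals, and a cluster with 0 UMIs is not drawn. Neutrophil-like clusters 3 and 7 lie between 10950 and 15610 CPM at left, above the other clusters drawn, and between 1355 and 3885 CPM at right.

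Barcodes under 0.5% mitochondrial UMIs carried more member RNA per UMI than the other cells. They were 379 of 751 cells of the injured control library and 152 of 246 of the injured slie/slie library. Their sum was 2963 CPM (2863 to 3067) against 1549 CPM (1504 to 1594) in the other cells of the control library, and 3692 CPM (3481 to 3912) against 1085 CPM (1009 to 1165) in the slie/slie library. These are ratios of 1.91 (1.83 to 2.00) and 3.40 (3.10 to 3.73). Of 10 members 6 were higher (Fos, Junb, Egr1, Ier2, Atf3 and Dusp1) and Nr4a1 was lower in the control library, where 6.87% of all genes measured were higher and 50.6% lower. Of 8 measured in the slie/slie library 7 were higher and 0 lower, where 9.49% of all genes measured were higher and 47.9% lower. Atf3 stood at 147 against 31.8 CPM and Dusp1 at 420.2 against 98.1 CPM in the control library, ratios of 4.61 (3.56 to 6.01) and 4.28 (3.69 to 4.97).

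The barcodes on either side of 0.5% differed in cell type. Neutrophil-like cells were 34.0% of those under 0.5% and 6.18% of the others in the control library, and held 68.5% and 10.3% of the member UMIs there. The slie/slie shares were 26.3% and 4.26% of the cells. Hemoglobin took 22.1% and 16.5% of the UMIs of the barcodes under 0.5%, against 0.0305% and 0.0317% of the others. Without neutrophil-like and erythroid-like cells the ratio of the sum was 1.11 (1.03 to 1.19) in the control and 0.777 (0.639 to 0.939) in the slie/slie library. The erythroid-like cells left out here included 8 and 3 cells with at least 0.5%, which held 52 and 42 member UMIs. Without neutrophil-like cells alone, so with the hemoglobin-rich cells kept, the ratios were 0.819 (0.764 to 0.877) and 0.630 (0.522 to 0.755).

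Within cell types the direction varied. Neutrophil-like cells under 0.5% had 10940 CPM (129 cells) against 21520 CPM (23 cells) in the control library, a ratio of 0.508 (0.459 to 0.562). Monocyte or macrophage-like cells ran the other way, at 3108 against 1896 CPM, 1.64-fold (1.45 to 1.86). Dendritic-like cells had a ratio of 0.660 (0.472 to 0.905). In mesenchymal-like cluster 0 the ratio was 1.37 (0.927 to 2.07) in the control and 0.740 (0.423 to 1.31) in the slie/slie library, both with 1 inside the interval. In the uninjured slie/slie library, with 22 such barcodes, it was 1.68 (1.45 to 1.95), and in its endothelial-like cells 1.54 (1.27 to 1.88). The uninjured control library had 3 such barcodes and gave no comparison. The summed heat shock list was 3769 against 4677 CPM in the control and 3999 against 5083 CPM in the slie/slie injured library. With hemoglobin left out of the totals the control values were 4838 against 4679 CPM, which turns the direction, and the slie/slie values 4786 against 5084 CPM. The summed members stood, on those totals, at 3805 against 1549 CPM and at 4419 against 1086 CPM.

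**Figure D4:**
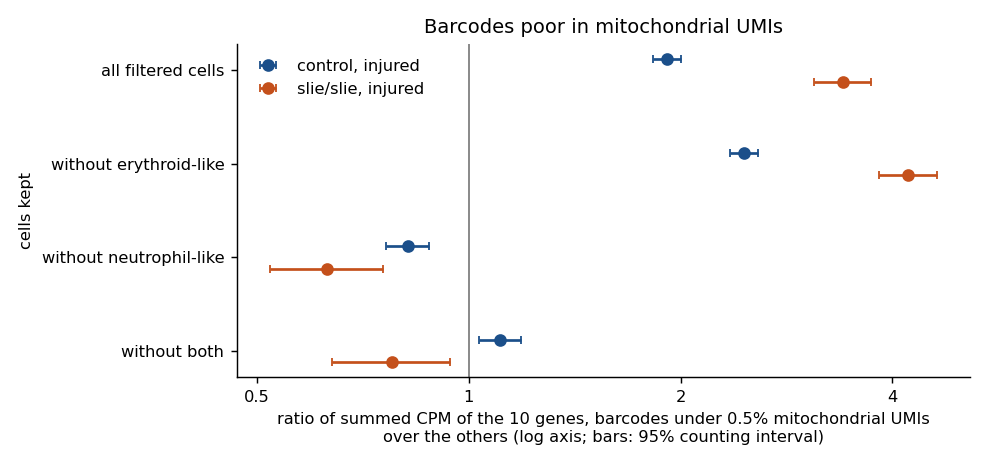
Ratio of the summed CPM of the 10 genes in barcodes under 0.5% mitochondrial UMIs over the other cells, on a log axis, in the 2 injured libraries; bars are 95% counting intervals and the vertical axis gives the cells kept. The ratios of 1.91 and 3.40 over all filtered cells stand beside 1.11 and 0.777 without neutrophil-like and erythroid-like cells.

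Between the genotypes, the summed member level of the injured limbs was nearly equal over all cells but parted by cell type. Over all filtered cells the slie/slie over control ratio was 0.973 (0.925 to 1.02). Dusp1 was higher (1.53-fold (1.33 to 1.75)) and Fos (ratio 0.496, 0.416 to 0.588), Ier2 (0.656, 0.535 to 0.800) and Nr4a1 (0.456, 0.254 to 0.767) were lower, and the other 6 lay within 1.5-fold. By this rule 13.8% of all 11313 genes measured were higher and 13.0% lower.

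Outside neutrophil-like cells the sum was 876 CPM in the slie/slie and 1340 CPM in the control library, a ratio of 0.654 (0.607 to 0.705). Of 9 members measured 0 were higher and 7 lower, where 14.5% of all 11139 genes measured were higher and 13.8% lower. Fos stood at 31.1 CPM (29 UMIs in 202 cells) against 169 CPM (644 UMIs in 599 cells), a ratio of 0.190 (0.127 to 0.274). That ratio was 0.198 (0.0781 to 0.419) in barcodes under 0.5% mitochondrial UMIs and 0.196 (0.124 to 0.295) in the others, so it was much the same on both sides. Markers of monocytes or macrophages were lower in the same cells: 12 of 12 were found in both libraries, with summed levels of 1962 CPM in the slie/slie and 4391 CPM in the control library. Monocyte or macrophage-like cells were 14 of the 202 and 109 of the 599 cells. Without them the Fos ratio was 0.299 (0.186 to 0.458) and that of the sum 0.722 (0.666 to 0.781), and 6 members were lower, no longer Atf3 (0.884). Nr4a1 (0.362, 0.176 to 0.670), Egr1 (0.402, 0.237 to 0.644), Dusp1 (0.469, 0.323 to 0.664), Ier2 (0.471, 0.357 to 0.612) and Junb (0.520, 0.438 to 0.615) were also lower. Atf3 stood at 12.9 against 21.3 CPM with 1 inside its interval (0.647, 0.330 to 1.17). Jun (0.812, 0.675 to 0.973) and Jund (1.16, 1.03 to 1.31) lay within 1.5-fold. Thinning to 500 UMIs per cell left out shallower cells and kept 156 of 202 slie/slie and 599 of 599 control cells, with 78 and 397 member UMIs. There 3 of 7 members measured passed 1.5-fold, and the ratio of the sums was 0.762 (0.591 to 0.972). Thinned, the log2 ratio of Nr4a1 was 0.07, which can rest on few UMIs, against -1.47 unthinned.

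Several clusters had a lower sum in the slie/slie library. The ratio was 0.453 (0.341 to 0.594) in mesenchymal-like cluster 6, 0.650 (0.551 to 0.764) in cluster 2 and 0.667 (0.485 to 0.904) in cluster 0, all 3 mesenchymal-like. It was 0.642 (0.493 to 0.826) in pericyte or smooth muscle-like and 0.743 (0.586 to 0.936) in keratinocyte-like cells. In dendritic-like cluster 10 (0.775, 0.585 to 1.01) and monocyte or macrophage-like cluster 1 (0.950, 0.735 to 1.21) the interval held 1. Fos had 0 UMIs in the 19 slie/slie cells of mesenchymal-like cluster 2 against 109 UMIs in 103 control cells, at least 7.45-fold lower with 3 UMIs in place of the 0. Among those 19 cells, 1 cell held 76827 of the 176453 UMIs. That cell also held 26 Jun and 52 Jund UMIs of the 168 member UMIs there. The bound for Fos and the sum ratio of cluster 2 thus rest in large part on 1 cell. Over all mesenchymal-like clusters, which held 76 of the 115 Ddr2 UMIs of the injured control library, Fos had 2 UMIs in 115 slie/slie and 132 in 306 control cells (ratio 0.0765, 0.0156 to 0.228). Jund ratios in single clusters with at least 20 of its UMIs ranged from 0.654 in neutrophil-like cluster 3 to 1.57 in pericyte or smooth muscle-like cluster 4.

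In neutrophil-like cells the sum was 13980 CPM in the slie/slie and 11950 CPM in the control library, 1.17-fold (1.09 to 1.26). It was higher in cluster 7 only, at 15610 CPM (14540 to 16740) against 11760 CPM (11060 to 12490). In cluster 3 it was 10950 CPM (9747 to 12270) against 12080 CPM (11500 to 12670). Egr1 (2.33-fold (1.58 to 3.41)) and Dusp1 (1.67-fold (1.43 to 1.96)) were higher and Fos lower (0.624, 0.509 to 0.760) of 9 measured, where 14.9% of all 1857 genes measured were higher and 26.1% lower. Beside those shares the counts show nothing particular to the members. The mix of clusters differed too, cluster 3 holding 105 of the 152 control cells and cluster 7 holding 27 of the 44 from slie/slie mice. Within cluster 3 Fos was lower in the slie/slie library (0.554, 0.415 to 0.728), and within cluster 7 it was higher (2.67-fold (1.79 to 4.02)). Whether the genotype ratios differ between these cell groups was not tested, since each genotype had 1 library.

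**Figure D5:**
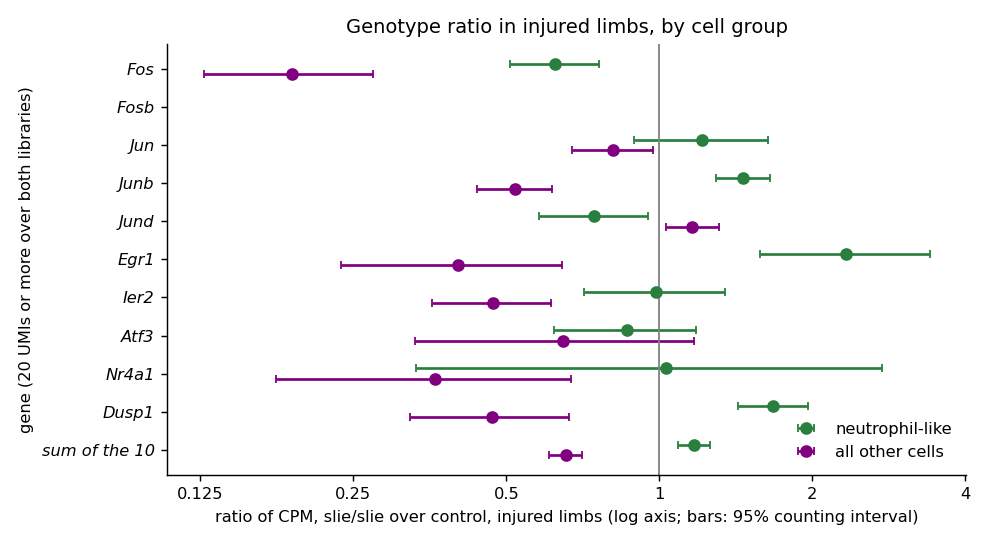
Ratio of CPM, slie/slie over control, in injured limbs for each gene and for the sum of the 10, on a log axis, in neutrophil-like cells and in other cells; bars are 95% counting intervals. In the other cells Fos lies lowest at 0.190 and Jund at 1.16, and the sums are 1.17 in neutrophil-like and 0.654 in other cells.

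Of the other lists outside neutrophil-like cells, 2 of 15 heat shock genes were higher and 0 lower in the slie/slie library, with a median log2 ratio of 0.17. Of the upstream list 0 of 20 were higher and 1 lower. Of the other early genes 0 of 21 were higher and 6 lower, and of the feedback genes 3 of 13 higher and 6 lower. Of the AP-1 partners 1 of 11 were higher and 5 lower, and of the targets 2 of 15 higher and 10 lower. Over all genes measured there 14.5% were higher and 13.8% lower. Over all filtered cells Klf2, an early gene of endothelial and white cells, was lower in the slie/slie library (59.4 against 242 CPM, ratio 0.249, 0.189 to 0.323). The matrix protease genes Mmp3 (59.4 against 221 CPM, 0.273, 0.207 to 0.353) and Mmp13 (4.95 against 19.1 CPM, 0.307, 0.109 to 0.699) were lower as well, and so was the bZIP gene Maf (26.7 against 104 CPM, 0.265, 0.174 to 0.388). Over the same cells the summed monocyte or macrophage markers stood at 1861 against 4205 CPM. The 6 osteoclast markers, of which Calcr was at 0 in both libraries, stood at 253 against 1339 CPM, and the part of these cell types in the 4 ratios was not tested.

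In the uninjured limbs the genotype ratio of the sum was 1.02 (0.908 to 1.14). Of 9 members measured Fos was higher (1.54-fold (0.905 to 2.78), on 110 against 15 UMIs) and Atf3 lower (0.377, 0.230 to 0.631), where 20.1% of all 7490 genes measured were higher and 20.8% lower. The Fos interval held 1. Without the 3 deepest cells of each library the log2 ratio of the sum was -0.39, against 0.02 with them.

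Injured over uninjured, the ratio of the sum was 1.23 (1.11 to 1.37) in control and 1.18 (1.11 to 1.26) in slie/slie mice; these comparisons use the same 4 libraries as those between genotypes. In control mice Fos (4.57-fold (2.81 to 8.03)) and Junb (4.07-fold (2.84 to 6.05)) were higher and 4 of 10 were lower (Jund 0.660, Egr1 0.571, Atf3 0.573 and Fosb 0.462), where 26.0% of all 10959 genes measured were higher and 31.4% lower. The Fosb call rests on 22 against 2 UMIs, and its interval (0.140 to 2.40) held 1. The Fos ratio rests on 15 UMIs in the uninjured control library, 66.7% of them in 3 cells. With each cell thinned to 500 UMIs the Jund direction turned, to a log2 ratio of 0.70, and with all deposited barcodes Egr1 and Atf3 turned as well (0.24 and 0.09). In slie/slie mice Junb (3.08-fold (2.61 to 3.64)), Dusp1 (1.95-fold (1.61 to 2.39)) and Atf3 (1.51-fold (1.02 to 2.26)) were higher and Nr4a1 lower (0.511, 0.263 to 0.951) of 9, where 20.0% of all 9221 genes measured were higher and 22.8% lower. Without neutrophil-like cells the sum was lower in the injured limb in both genotypes, at log2 ratios of -0.23 and -0.85. The 3 members higher in slie/slie mice all turned direction without those cells, Junb to -0.082, Dusp1 to -1.88 and Atf3 to -1.60 on the log2 scale. The cell types captured differed between the limbs, with neutrophil-like cells almost all in the injured ones, and the part of the other cell types in these ratios was not tested.

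Across 19 populations of at least 20 cells (a cluster or class in 1 library each), levels were compared on log2(CPM + 1). The populations share libraries and depth, so the correlations are descriptions. Junb and Ier2 were most alike among the members (Pearson r = 0.90), Atf3 and Dusp1 came next (0.87), and Jun and Egr1 were least alike (0.24). Among 2710 genes with at least 300 UMIs, those outside the lists most like the summed members were Mcl1, a survival factor of white cells (r = 0.93), Nfe2l2, the oxidative stress factor NRF2 (0.92), Irg1 (0.91), Sat1 (0.90), Pnrc1 (0.90), Wfdc21 (0.89), Stfa2l1 (0.89) and Klf3 (0.89). From the lists, Zfp36 (0.94) and Btg1 (0.92) stood beside them. The neutrophil-like populations, with far higher member sums than the rest, weigh heavily in these correlations. In them Irg1 stood at 225, 3077 and 1644 CPM, and at 10.5 CPM or less in the others. Stfa2l1 stood at 3030, 4043 and 4358 CPM, and at 12.7 CPM or less in the others. A gene particular to neutrophils can thus rank high here.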

How the data were processed

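Single-cell RNA of 4 pooled hindlimb libraries was measured. The deposited matrices hold unnormalized UMI counts that Cell Ranger 5.0.1 wrote, per the file headers. The genome build was mm10, per the submitters' processing notes, and neither header nor label states how cell barcodes were called. The 10 members and the gene lists were chosen with earlier results of these data known. Named genes were the members, the 4 genes of each list with the most UMIs, list genes past 3-fold between genotypes in injured limbs with an interval that excludes 1, and the 8 genes most like the summed members; some of them are not reported here.

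Barcodes with at least 200 genes, and with mitochondrial UMIs of no more than 20%, were kept. They were clustered with scanpy 1.11.5 and leidenalg 0.10.2 (2000 variable genes, 30 components, 15 neighbours, resolution 1), leaving out the members and the other early, feedback and heat shock genes. Clusters were named from marker lists, so shares depend on these rebuilt names. Scrublet called 0, 2, 14 and 4 doublets (injured control, injured slie/slie, uninjured control, uninjured slie/slie), which were kept. Removing them was an alternative only for neutrophil-like over other cells and for the genotype ratios by cell group, all in injured libraries. No other comparison was run without them, among them those with the uninjured control library, where 14 of 60 cells were called. UMIs were summed per library and population and given as CPM with exact Poisson intervals. Ratios had 1 count added to each sum, with an exact conditional binomial interval. Bounds put 3 counts in place of 0. Cells of 1 library are not replicates, so no p-value was computed. The ratio was tested on simulated data for the injured genotype comparison: true log2 changes of -1 and 1 came back as medians of -1.0 and 1.07. The simulated sums were Poisson counts from a pooled profile, the model behind the interval. They held no spread between cells or mice, so the simulation covers counting error only. Alternatives changed the cell filter, depth, weights, totals and clusters. Sequences are from RefSeq (GRCm38.p6). Totals per library ran from 242888 to 4032783 UMIs in kept cells.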

Additional observations from a re-analysis of the deposited data

Results flagged for a closer look

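Some ratios lay on opposite sides of 1 in groups given the same comparison. None of these differences was tested, since each group had 1 library, and the intervals cover counting error only. Dusp1 was 1.53 times as high in slie/slie as in control injured limbs and 0.695 times in uninjured limbs. Atf3, injured over uninjured, was at 0.573 in control and 1.51 in slie/slie mice.

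In injured limbs the slie/slie over control ratio was 1.46 in neutrophil-like and 0.520 in other cells for Junb, 2.33 and 0.402 for Egr1, 1.67 and 0.469 for Dusp1, and 1.17 and 0.654 for the sum. Jund ran the other way, at 0.745 and 1.16. For Fos the ratio was 0.554 in neutrophil-like cluster 3 and 2.67 in cluster 7.

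Barcodes under 200 genes, which entered no comparison but the alternative with all deposited barcodes, held member UMIs too. Their sum of members was 89.5 CPM (64.5 to 121) in the injured control library and 331 CPM (282 to 387) in the injured slie/slie library. It was 268 CPM (214 to 331) in the uninjured control and 78.2 CPM (52.3 to 112) in the uninjured slie/slie library, in each case below the level in the kept cells.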

How the results depend on the processing

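Values here are log2 ratios unless a number of members is named. Leaving out neutrophil-like, erythroid-like or monocyte or macrophage-like cells, and the alternatives for neutrophil-like and for other cells on their own, were chosen after seeing the data. No paired analysis was possible because each group had 1 library. Barcodes under 0.5% mitochondrial UMIs alone gave no value for comparisons with the uninjured control library, which had 3. That library kept 60 cells, and its depth limits those comparisons. Of the results on single members, 837 alternatives stayed within the counting interval, 247 moved and 42 reversed, which counts only members past 1.5-fold with an interval that excludes 1. Counting every member, the direction turned in 123 of 1126. An alternative can leave a member with fewer UMIs than the main setting asked for, so such a turn can rest on few UMIs. Of the sums and numbers of members, 168 stayed, 60 moved and 8 reversed. Where no value shows it, the cause was not tested.

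The higher sum in neutrophil-like cells kept its direction under every alternative run. From 3.16 in the control library it came to 3.42 thinned, 3.37 with cells weighted equally, 3.06 without hemoglobin, 2.84 also without mitochondrial and ribosomal protein genes, 3.95 without and 3.26 with only barcodes under 0.5%, and 3.07 without erythroid-like cells. For the slie/slie library 4.0 came to 3.66 without those 3 gene groups and to 4.48 in barcodes under 0.5%. The genotype sum outside neutrophil-like cells, -0.61, came to -0.91 in barcodes under 0.5%, -0.47 without monocyte or macrophage-like cells and -0.39 thinned, where 3 of its 7 members passed. Nr4a1 reversed under 2 of these (1.08 in those barcodes and 0.067 thinned), and Atf3, whose interval held 1, turned too (1.08 and 0.13). Values were kept for all 9 members of the main setting, but 7 were measured in those barcodes and 7 thinned. The turns of Nr4a1 and Atf3 can thus rest on few UMIs. In neutrophil-like cells the genotype sum fell to 0.072 thinned from 0.23, with 5 members in place of 3.

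The genotype sum over all injured cells (-0.040) came to -0.33 with all deposited barcodes, -0.51 without and 0.32 with only barcodes under 0.5%, 0.16 without the 3 deepest cells, -0.15 with cells weighted equally and -0.61 without neutrophil-like cells. Members past 1.5-fold, 4, became 1 in barcodes under 0.5%, 2 weighted equally and 7 without neutrophil-like cells. Dusp1 reversed to -0.41 without barcodes under 0.5% and -1.09 without neutrophil-like cells, and Nr4a1 to 0.42 in barcodes under 0.5%. In uninjured limbs the sum (0.021) came to 0.54 with all barcodes, -0.22 without barcodes under 0.5%, -0.39 without the 3 deepest cells and 0.27 thinned. Its 2 members past 1.5-fold became 6 with all barcodes, 5 weighted equally and 1 without neutrophil-like cells.

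Injured over uninjured, the control sum (0.30) reversed to -0.19 without barcodes under 0.5%, -0.079 without the 3 deepest cells and -0.23 without neutrophil-like cells. It came to 1.08 with all barcodes, 0.0989 at 500 genes, 1.46 thinned and 1.30 weighted equally. Jund reversed (0.024 with all barcodes, 0.70 thinned, 0.30 weighted equally), as did Egr1 (0.24 and 0.46 with all barcodes and weighted equally) and Atf3 (0.090 with all barcodes). The slie/slie sum (0.24) reversed to -0.48 without barcodes under 0.5% and -0.85 without neutrophil-like cells, with 8 members past 1.5-fold in place of 4. It came to 0.53 in barcodes under 0.5%, 0.47 without the 3 deepest cells, 1.22 thinned and 1.01 weighted equally. Without barcodes under 0.5% and without neutrophil-like cells Atf3 reversed (-1.33, -1.60) and so did Dusp1 (-0.64, -1.88). Fos, within 1.5-fold there, turned as well (-0.77, -1.58). Junb reversed to -0.082 without neutrophil-like cells, and Nr4a1 to 0.25 in barcodes under 0.5%, 0.47 thinned and 0.099 weighted equally.

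For barcodes under 0.5% over the others, the control sum (0.94) reversed to -0.29 without neutrophil-like cells and was 0.15 without erythroid-like cells too. It came to 0.45 with all barcodes, 1.25 at 500 genes, 1.03 without the 3 deepest cells, 1.08 thinned, 1.30 and 1.28 with the smaller totals and 1.30 without erythroid-like cells. Its 7 members past 1.5-fold became 4 with all barcodes and 2 without neutrophil-like cells, erythroid-like cells kept or not. The slie/slie sum (1.77) reversed to -0.67 and -0.36 in the same order, with 4 and 1 members in place of 7. It came to 0.57 with all barcodes, 2.07 at 500 genes, 1.39 thinned, 1.18 weighted equally, 2.03 and 1.99 with the smaller totals and 2.07 without erythroid-like cells.

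Single members reversed there too. Without neutrophil-like cells the control values were -0.23 for Fos, -0.032 for Junb, -0.17 for Egr1, -0.022 for Ier2, -1.35 for Atf3 and -0.0089 for Dusp1, and without both cell types Atf3 was at -0.89. Nr4a1 reversed to 0.43 thinned and 0.22 weighted equally. Among slie/slie cells, without neutrophil-like cells and then without both, Jun was at -0.44 and -0.092, Egr1 at -0.94 and -0.59, Junb at -0.64 and -0.28, Ier2 at -0.71 and -0.25, and Dusp1 at -2.57 and -2.22. Fos was at -0.22 without neutrophil-like cells. Jun was at -0.51 with all barcodes, and Egr1 at -1.48 thinned and -0.96 weighted equally.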
